A study of Mus musculus with 8 samples.

Results

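The genes described here build the ceramides and the cholesterol of the skin barrier. They are 43 named genes, listed by their known function: 23 genes of ceramide and acylceramide synthesis and processing, and 20 genes of cholesterol synthesis and its control. All 43 were found by symbol among the 51912 gene identifiers of the count files, and all 43 passed the filter on low counts that left 16512 genes for testing.

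RNA was sequenced from ear epidermal sheets of 8 mice, 4 in the group A20KIKO and 4 in the group A20WT, one library per animal. Both groups carried floxed alleles of A20 (Tnfaip3, written A20F/F), were 8 weeks old, and received tamoxifen into the peritoneum at 1 mg per injection, in 2 injections on consecutive days. They were killed 7 days after the first injection. The A20KIKO mice also carried Krt5-CreERT2, a Cre recombinase that tamoxifen activates and that the promoter of the basal keratin gene Krt5 drives. The A20WT mice lacked it, so that the presence of Cre is part of every difference given below. A20 is an enzyme that edits ubiquitin chains and thereby limits NF-kB activity. The comparison asks how epidermal transcripts differ 7 days after the start of an induced keratinocyte deletion of A20.

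The outermost layer of the epidermis holds water in the body with stacked lipid sheets made of ceramides, cholesterol and free fatty acids. Keratinocytes assemble ceramides from a sphingoid base and a very long chain fatty acid, load them as glucosylceramides into lamellar granules, and process them again outside the cell. A fraction of them, the acylceramides, carries linoleic acid, and its lipoxygenase-oxidised form is bound to the protein envelope of the corneocyte. Cholesterol is built in the same cells from acetyl-CoA through mevalonate, squalene and lanosterol, under the control of the transcription factor SREBP2. Inherited loss of many of these genes causes ichthyosis, a scaling disorder of the skin.

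The libraries held between 40451075 (A20KIKO mouse 3) and 89624373 (A20WT mouse 1) counts, and the lowest count of any of the 43 genes in any library was 436, for Fdps. Values below are normalised counts per 1000000 counts (CPM), after scaling of each library by its total and a trimmed-mean-of-M-values factor. Tnfaip3, the targeted gene, had 90.9, 55.0, 64.0 and 86.2 CPM in the libraries labelled A20KIKO (mice 1 to 4) and 13.5, 19.6, 17.7 and 15.4 CPM in those labelled A20WT. It was thus higher in the libraries labelled as deleted (log2 change 2.16, SE 0.18, edgeR adjusted p = 8.36e-05), against the direction the label names. The single count per gene includes exons outside the deleted part, which the sources used here do not give, so it does not test the deletion. Every direction below is that of the libraries labelled A20KIKO against those labelled A20WT. Markers of basal, spinous and granular keratinocytes were present in every library, with summed levels of 23100 to 41500, 20900 to 32000 and 11900 to 18300 CPM. Of the marker genes tested, Krt5 (basal, 1 of 7) and Flg2 (granular, 1 of 11) fell, Dgat2l6 (sebocyte, 1 of 11) rose, and 4 of 9 monocyte and macrophage markers rose (C1qa, C1qb, C1qc and Ly6c2). In a bulk library, fewer cells of a type and less RNA per cell cannot be told apart.

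Of the 43 lipid genes, 1 changed: Hsd17b7, an enzyme late in cholesterol synthesis, was 1.53-fold higher in the A20KIKO libraries. None of the 23 ceramide genes was called in either direction, and none of the 43 was called lower. The 1 call is 2.33% of the 43 genes. Of all 16512 tested genes, 3.49% were called by the same edgeR quasi-likelihood test at an adjusted p under 0.05 (2.43% higher and 1.06% lower). At an unadjusted p under 0.05 the count was 4 of 43 (9.3%), against 15.4% of all tested genes: 1 ceramide gene (Elovl7) and 3 cholesterol genes (Hsd17b7, Sc5d and Stard4). DESeq2, which called 6.86% of all tested genes, called 2 of the 43, Hsd17b7 as higher and Stard4 as lower, and 0 of the ceramide genes. The 8 libraries fell into groups that did not overlap for 5 of the 43 (11.6%), against 10.6% of all tested genes (5.78% higher and 4.79% lower). Hsd17b7 and Smpd1 were the 2 that were higher in each A20KIKO library, and Sc5d, Stard4 and Abhd5 the 3 that were lower in each.

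The intervals set how large a difference these 8 mice allow. For 41 of the 43 genes (95.3%) the 95% interval of the log2 change lay within 2-fold in either direction, which was so for 69.4% of all tested genes. For 35 of the 43 (81.4%) it lay within 1.5-fold, against 47.1% of all tested genes. The 43 genes had counts of at least 436 in each library, while the filter for testing used a minimum count of 10. Intervals are wider at low counts, and the part of the count level in these shares was not tested. Degs2 and Alox12e were the exceptions at 2-fold. The log2 change was above 0 for 28 of the 43 (65.1%, against 49.0% of all tested genes) and below 0 for 15. The median of the 43 was 0.11, against -0.01 over all tested genes. That median fell to 0.06 when A20WT mouse 1 was left out.

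**Figure D1:**
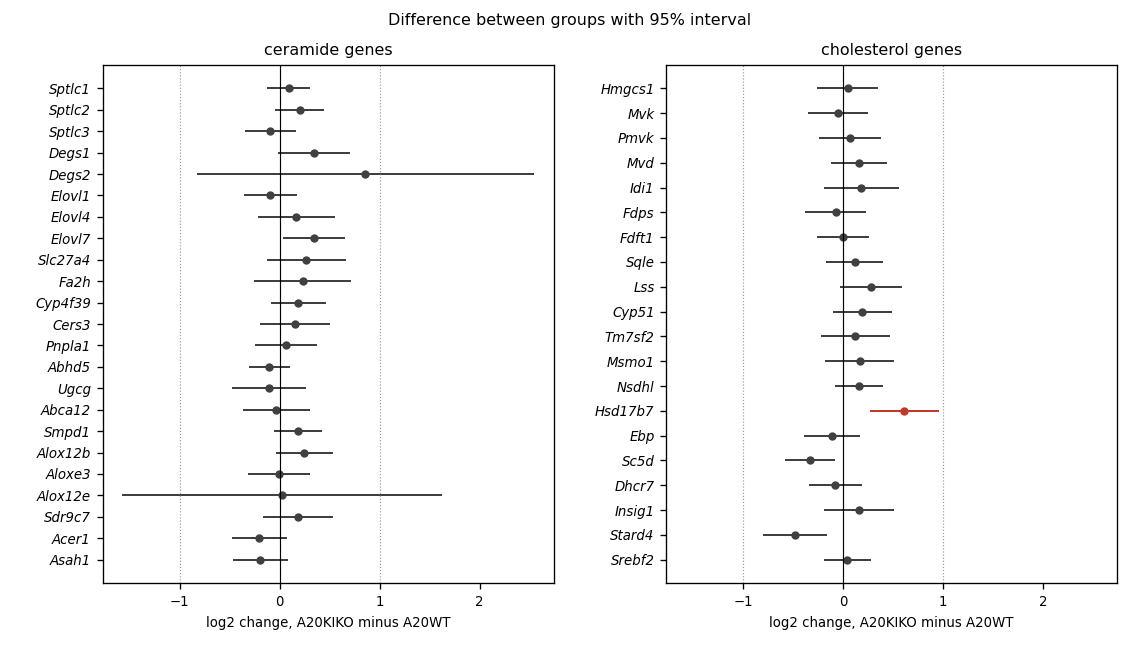
Log2 change between A20KIKO and A20WT (horizontal axis) for the 23 ceramide genes and the 20 cholesterol genes, with the 95% interval from edgeR as a line and dotted lines at a 2-fold difference. Only Hsd17b7, in red, passed the test, and only the intervals of Degs2 and Alox12e reach beyond 2-fold.

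The level of transcript differed far more between the genes than between the groups. Per kilobase of exon, the highest mean level over the 8 libraries was that of Elovl4, the elongase that makes the longest fatty acids of epidermal ceramides, at 514 CPM per kb. Elovl1, which makes the shorter very long chain species, followed at 310.1 CPM per kb, then the lipoxygenase gene Alox12e at 288.0, the fatty acid 2-hydroxylase gene Fa2h at 268 and the alkaline ceramidase gene Acer1 at 206. The values of Elovl4, Elovl1 and Acer1 did not overlap between the libraries, but those of Alox12e and of Fa2h each reached into the ranges of the other 4, so the places of Alox12e and Fa2h are not separated. The lowest levels per kilobase were those of Fdps (2.70), Tm7sf2 (3.69), Stard4 (3.73) and Abca12 (5.46 CPM per kb). The length of a gene is that of all its annotated exons merged, which can exceed that of a single transcript. The value of Fdps is uncertain, because 21.4% of the 100-base stretches of its exons also occur in other annotated genes and how the authors' counting treated such reads is not given. The same holds for Tm7sf2, with 7.92% of such stretches shared and 12.1% of exon bases overlapped by Vps51 on the same strand.

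**Figure D2:**
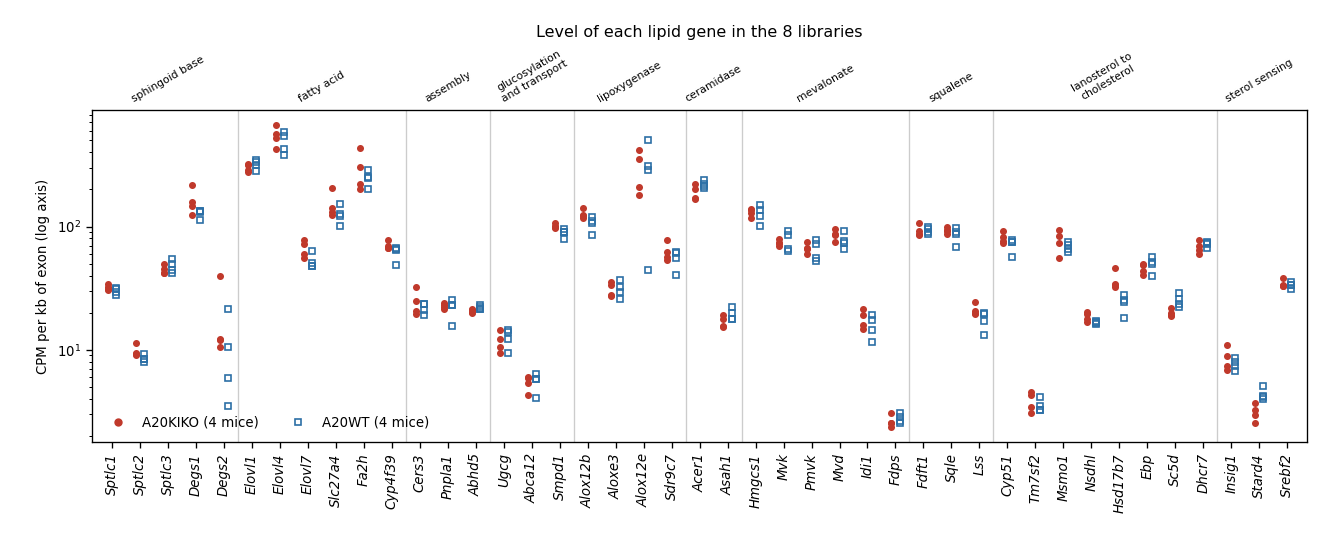
Level of each of the 43 genes in the 8 libraries, in CPM per kilobase of exon on a log axis, with A20KIKO mice as red circles and A20WT mice as open blue squares, ordered by step of synthesis. The genes span from 2.70 (Fdps, uncertain because of sequence shared with other genes) to 514 (Elovl4) in their means. The groups lie over each other for most genes.

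The first steps make the sphingoid base, the backbone of a ceramide, and none of their 5 genes was called. Degs1, whose product puts the double bond into the base, had 412, 379, 320.3 and 566 CPM in A20KIKO mice 1 to 4 and 344, 291, 343 and 340.0 CPM in A20WT mice 1 to 4. A20KIKO mouse 4 stood highest and A20WT mouse 2 lowest, and A20KIKO mouse 3 lay among the A20WT values. This gave a log2 change of 0.35 (SE 0.16; adjusted p = 0.329 by edgeR), with an interval from -0.0034 to 0.70. Sptlc3, a subunit of serine palmitoyltransferase, the enzyme that commits serine and an acyl-CoA to this pathway, had 142, 119, 120.1 and 129 CPM in the A20KIKO and 119, 143, 156 and 126 CPM in the A20WT libraries. The groups overlapped throughout, with a log2 change of -0.09 (SE 0.11). The other subunits, Sptlc1 and Sptlc2, had log2 changes of 0.09 and 0.20.

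Degs2, the enzyme that adds a hydroxyl group and so makes phytoceramides, was the most scattered of these. It had 31.2, 27.0, 31.7 and 103 CPM in A20KIKO mice 1 to 4, and 15.3, 8.99, 27.2 and 54.9 CPM in A20WT mice 1 to 4; its values are given because its interval is wide, a choice made after they were seen. Mouse 4 of each group held its group's highest value, and the groups overlapped. The log2 change was 0.86 (SE 0.70, edgeR adjusted p = 0.657), with an interval from -0.82 to 2.54, and it was 0.17 without A20KIKO mouse 4. Over its exons, 10.8% of bases overlap Evl on the opposite strand, and the library chemistry does not keep the strand. On the mean log2 scale, markers of granular keratinocytes were also highest in A20KIKO mouse 4, at 0.47 above the A20WT mean. The other 7 libraries lay between -0.23 and 0.19. Among these markers, Rptn had 172.5 CPM in A20KIKO mouse 4 and at most 20.96 CPM in any other library. Flg, Casp14 and Tgm3 were also highest in A20KIKO mouse 4, but Flg2 was lowest there (60.13 CPM). Its summed granular level, 12910 CPM, lay within the A20WT range of 12500 to 18330 CPM. The part of these markers in the Degs2 values was not tested.

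The fatty acid arm lengthens, activates and hydroxylates the acyl chain of the ceramide, and 0 of its 6 genes were called. Elovl4 had 1999, 1594, 1281 and 1704 CPM in A20KIKO mice 1 to 4 and 1148, 1630.0, 1777 and 1297 CPM in A20WT mice 1 to 4. The groups overlapped, and the log2 change was 0.17 (SE 0.17, edgeR adjusted p = 0.729). Elovl1 had 882, 859, 751 and 782 CPM in the A20KIKO and 911, 771, 865 and 943 CPM in the A20WT libraries. Its log2 change was -0.09 (SE 0.12), and its interval of -0.34 to 0.16 holds it within 1.5-fold. Elovl7, a further elongase, was the ceramide gene with the smallest p: its log2 change of 0.34 (SE 0.14) had an interval from 0.04 to 0.65, but an edgeR adjusted p of 0.249 over all genes.

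Slc27a4, the fatty acid transport protein whose loss causes ichthyosis prematurity syndrome, ranged from 546 to 906 CPM in the A20KIKO and from 443 to 672 CPM in the A20WT libraries (log2 change 0.27, SE 0.18). Fa2h, whose product hydroxylates the acyl chain, ranged from 608 to 1297 and from 603 to 859 CPM (log2 change 0.23, SE 0.22). Both were highest in A20KIKO mouse 2, which also held the highest level of sebocyte markers, 0.55 above the A20WT mean on the log2 scale. The sebocyte list as a whole had 1 of 11 markers called, and its summed level was 2802 to 3967 CPM in the A20KIKO and 2823 to 3310 CPM in the A20WT libraries. Its part in these values was not tested. Cyp4f39, the mouse counterpart of the omega-hydroxylase gene that prepares fatty acids for acylceramide, had a log2 change of 0.19 (SE 0.12).

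Assembly joins base and acid and then adds linoleate, and 0 of its 3 genes were called. Cers3, the ceramide synthase of ultra-long chain ceramides, had 81.5, 63.3, 67.1 and 105 CPM in A20KIKO mice 1 to 4 and 62.2, 68.8, 77.0 and 76.4 CPM in A20WT mice 1 to 4. Pnpla1, the transacylase that makes acylceramide, had 104, 112, 116 and 108 CPM in the A20KIKO and 75.0, 111, 112 and 122 CPM in the A20WT libraries. A20WT mouse 1 held the lowest value of both, and otherwise the groups overlapped. Their log2 changes were 0.16 (SE 0.16) and 0.07 (SE 0.14). Abhd5, the cofactor of Pnpla1, lay between 119 and 127 CPM in the A20KIKO and between 127 and 138 CPM in the A20WT libraries. These ranges do not overlap, yet the A20KIKO mean differed by only -6.73% (log2 change -0.10, SE 0.09, edgeR adjusted p = 0.676). Pnpla1 and Abhd5 share 13.3% and 16.0% of exon bases with genes on the opposite strand.

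Glucosylation, transport and the release of the finished ceramide rest on 3 further genes, of which 0 were called. Smpd1, the acid sphingomyelinase that yields ceramide in the extracellular space, had 333, 357, 322 and 335 CPM in A20KIKO mice 1 to 4 and 266, 304, 300.3 and 317 CPM in A20WT mice 1 to 4. Each A20KIKO library lay above each A20WT library, the nearest pair being 322 and 317 CPM. The log2 change was 0.18 (SE 0.10, edgeR adjusted p = 0.450), and its interval from -0.04 to 0.41 includes 0. Ugcg, the glucosylceramide synthase, had 63.3, 55.1, 48.9 and 76.1 CPM in the A20KIKO and 49.6, 73.1, 75.6 and 63.8 CPM in the A20WT libraries, with full overlap (log2 change -0.11, SE 0.16). Abca12, the lamellar granule transporter that is lost in harlequin ichthyosis, had 80.0 ± 11.2 and 81.7 ± 14.6 CPM (SD, n = 4 each).

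The lipoxygenase branch oxidises the linoleate of acylceramide so that it can be bound to the corneocyte envelope, and 0 of the 4 genes listed under it were called. Alox12e is listed there as an epidermal lipoxygenase, and no part in this oxidation is claimed for it. Alox12b, the first enzyme of this branch, had 288, 299.5, 296 and 343 CPM in A20KIKO mice 1 to 4 and 207, 262, 271 and 292 CPM in A20WT mice 1 to 4. A20WT mouse 4 lay above A20KIKO mouse 1, so the groups overlapped (log2 change 0.25, SE 0.13, edgeR adjusted p = 0.381). Aloxe3, which acts next, had 197.9 ± 26.2 and 199 ± 30.1 CPM (SD, n = 4 each), with a log2 change of -0.01 (SE 0.14). Sdr9c7, the dehydrogenase that follows, had a log2 change of 0.18 (SE 0.16).

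Alox12e, the gene of an epidermal 12-lipoxygenase, was the other gene whose interval reached past 2-fold. It had 1184, 995, 593 and 511 CPM in A20KIKO mice 1 to 4 and 1414, 819, 870.2 and 125 CPM in A20WT mice 1 to 4. The highest and the lowest of all 8 values were both A20WT libraries and differed 11.3-fold. Between the groups the log2 change was 0.02 (SE 0.67), with an interval from -1.56 to 1.61, so differences up to that size in either direction are not excluded. Its spread within the groups exceeded that of 97.3% of tested genes.

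The ceramidases, which split ceramide again, were the one step of the ceramide arm where each gene had a log2 change below 0, and 0 of 2 were called. Acer1, the alkaline ceramidase of differentiated keratinocytes, had 491, 542, 417 and 409.9 CPM in A20KIKO mice 1 to 4 and 583, 516, 539 and 499.7 CPM in A20WT mice 1 to 4. Asah1, the acid ceramidase of the lysosome, had 65.5, 60.3, 51.5 and 52.9 CPM in the A20KIKO and 59.8, 67.6, 75.4 and 60.2 CPM in the A20WT libraries. A20KIKO mice 3 and 4 were the lowest 2 for both genes, and A20KIKO mouse 2 lay among the A20WT values for both. The log2 changes were -0.20 (SE 0.12, edgeR adjusted p = 0.499) and -0.19 (SE 0.12, edgeR adjusted p = 0.514).

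The cholesterol genes are known to share promoter elements: NF-Y binds CCAAT boxes and acts with SREBP2, which binds sterol response elements. The 250 bases before the RefSeq transcription start (GRCm38.p6) were read for the 36 of the 43 genes matched in the promoter table, 20 ceramide and 16 cholesterol genes. A CCAAT box (CCAAT or ATTGG, either strand) was found before at least one start of 16 of the 16 cholesterol genes and of 6 of the 20 ceramide genes. The share was 37.5% of all 27025 genes in the table and 39.5% of the 17492 protein-coding ones. A GC box (GGGCGG or CCGCCC) was found in 15 of 16 cholesterol genes (93.8%) and 12 of 20 ceramide genes (60.0%), against 35.4% of all genes and 45.8% of the protein-coding ones. The sterol response element searched (TCACNCCAC or GTGGNGTGA) was found once, in Hmgcs1, against 1.22% of all genes. Only this exact pattern was searched, so other forms of the element, or sites outside the window, would be missed. The count therefore does not show which genes lack such an element. Aloxe3, Asah1, Fa2h, Fdft1, Fdps, Sqle and Stard4 had no entry in the promoter table and were not searched. Matches of different motifs can share bases where one ends and the next begins. A match describes letters in this window and is not a bound site. The 4 windows below are shown because Hsd17b7 was the gene called, Sc5d lay lower in each A20KIKO library although it serves the same late steps, Hmgcs1 holds the sterol response element, and Elovl4 is the highest ceramide gene and holds no CCAAT box. CCAAT boxes on either strand, and the sterol response element of Hmgcs1, are in capitals, and each sequence reads 5′ to 3′ on the strand of the gene.
Hsd17b7, chr1:169969206-169969455, minus strand: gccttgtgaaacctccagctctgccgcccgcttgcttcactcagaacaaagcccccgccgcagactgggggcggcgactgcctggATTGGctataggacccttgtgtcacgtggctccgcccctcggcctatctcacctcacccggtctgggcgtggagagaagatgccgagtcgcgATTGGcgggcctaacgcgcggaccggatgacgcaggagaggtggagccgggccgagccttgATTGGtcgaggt
Hmgcs1, chr13:119690101-119690350, plus strand: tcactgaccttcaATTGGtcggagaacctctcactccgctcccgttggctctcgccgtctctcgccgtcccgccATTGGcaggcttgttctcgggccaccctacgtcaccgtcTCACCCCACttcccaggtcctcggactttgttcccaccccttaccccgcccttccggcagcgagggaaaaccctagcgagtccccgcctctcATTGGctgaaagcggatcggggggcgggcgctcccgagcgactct
Sc5d, chr9:42264301-42264550, minus strand: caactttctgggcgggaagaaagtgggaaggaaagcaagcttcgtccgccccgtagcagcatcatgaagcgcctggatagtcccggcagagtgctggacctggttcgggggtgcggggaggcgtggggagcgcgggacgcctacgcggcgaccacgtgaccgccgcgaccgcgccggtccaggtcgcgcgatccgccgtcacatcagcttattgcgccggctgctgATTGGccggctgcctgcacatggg
Elovl4, chr9:83806306-83806555, minus strand: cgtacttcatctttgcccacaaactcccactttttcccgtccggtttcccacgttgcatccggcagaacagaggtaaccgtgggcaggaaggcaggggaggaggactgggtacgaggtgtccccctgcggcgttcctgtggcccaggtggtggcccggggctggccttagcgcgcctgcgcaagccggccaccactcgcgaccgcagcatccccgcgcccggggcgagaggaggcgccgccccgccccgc
The CCAAT boxes of Hsd17b7 begin at positions -165, -73 and -12 from the RefSeq start, those of Hmgcs1 at -237, -176 and -45, and that of Sc5d at -24. The GENCODE M21 gene starts of the genes shown differ from the RefSeq starts. That of Hsd17b7, at 169969241, lies within the window shown, so that its CCAAT box at -12 lies inside the gene as GENCODE places it. Those of Hmgcs1 (119690379), Sc5d (42264256) and Elovl4 (83806277) lie downstream of their windows.

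Hsd17b7 encodes the 3-ketosteroid reductase that reduces the keto group that Nsdhl leaves on the sterol when it removes a methyl group. The gene lies on chromosome 1, from 169949535 to 169969241 on the minus strand (GRCm38, GENCODE M21). It had 173, 236, 170.2 and 166 CPM in A20KIKO mice 1 to 4 and 92.8, 141, 130.0 and 124 CPM in A20WT mice 1 to 4. Each A20KIKO library lay above each A20WT library, with A20KIKO mouse 2 far above its group and A20WT mouse 1 lowest. The means were 186 ± 33.0 and 122 ± 20.7 CPM (SD, n = 4 each). The log2 change was 0.61 (SE 0.15, edgeR adjusted p = 0.0499), with an interval from 0.28 to 0.94. The call rests on a p just under the threshold. It was lost on leaving out any one library except A20WT mouse 2 (edgeR adjusted p 0.0559 to 0.123 over those 7 fits, 0.0431 without A20WT mouse 2), and in 3 other settings: without robust dispersions (0.0571), with the first sequencing lane alone (0.0565) and with limma-voom (0.0593), which called 3.49%, 3.47% and 3.34% of all tested genes. The log2 change stayed between 0.48 and 0.69 on leaving out each library. No 100-base stretch of its exons occurs in another annotated gene. A20KIKO mouse 2, with the highest Hsd17b7, also had the highest levels of sebocyte markers (0.55 above the A20WT mean on the log2 scale) and of melanocyte markers (2.24 above). In A20KIKO mice 1, 3 and 4 the sebocyte level was 0.31, -0.31 and -0.11, and the melanocyte level 1.53, 0.93 and -0.15. The A20WT libraries ranged from -0.38 to 0.22 for sebocyte markers and from -0.26 to 0.30 for melanocyte markers. All 5 melanocyte markers had a log2 change above 0 (median 1.33, 0 called), with summed levels of 45.9 to 222 CPM in the A20KIKO and 40.9 to 56.4 CPM in the A20WT libraries. The 5 fibroblast markers tested lay below 0 (median -1.56, 0 called), with 15.1 to 36.7 and 39.7 to 55.3 CPM. At an unadjusted edgeR p under 0.05 each list held 4 of its 5 markers. The part of these markers in the Hsd17b7 values was not tested.

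Around Hsd17b7, the other 7 genes of the steps from lanosterol to cholesterol were not called: 4 had a log2 change above 0 and 3 below. Sc5d, the lathosterol oxidase that acts late in the pathway, had 97.3, 92.0, 93.0 and 107 CPM in A20KIKO mice 1 to 4 and 114, 126, 141 and 109 CPM in A20WT mice 1 to 4. Each A20KIKO library was the lower, by a narrow margin between mouse 4 of either group. The log2 change was -0.33 (SE 0.11, edgeR adjusted p = 0.144), with an interval from -0.57 to -0.09. Sc5d and Stard4, below, are outside the rule for named genes and were singled out after their values were seen.

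The remaining 6 of these steps had log2 changes from -0.11 to 0.19. Cyp51, the lanosterol demethylase, had 0.19 (SE 0.13), and its A20WT mouse 1 value of 249 CPM lay below the 324 to 409.5 CPM of the A20KIKO libraries and the 329.7 to 346 CPM of the other A20WT libraries. Msmo1, the methylsterol oxidase whose product passes on to Nsdhl and Hsd17b7, had 0.17 (SE 0.15), and Nsdhl, the dehydrogenase of the same complex of steps, had 0.16 (SE 0.10). Tm7sf2, a sterol reductase, had 0.12 (SE 0.15). Ebp, the isomerase before Sc5d, had -0.11 (SE 0.12), and Dhcr7, the reductase that forms cholesterol, had -0.08 (SE 0.11). Hsd17b7 alone among the 8 had an interval wholly above 0, and Sc5d alone had one wholly below 0.

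The mevalonate and isoprenoid steps held 6 genes, of which 0 were called. Hmgcs1, the synthase that makes HMG-CoA, had 634, 630.2, 597 and 536 CPM in A20KIKO mice 1 to 4 and 460.1, 688, 622 and 554 CPM in A20WT mice 1 to 4. Mvd, the decarboxylase that ends the mevalonate part, had 138, 179, 158 and 163 CPM in the A20KIKO and 142, 136, 123 and 170.3 CPM in the A20WT libraries. Both genes overlapped between the groups, with log2 changes of 0.04 (SE 0.14) and 0.16 (SE 0.12). The kinase genes Mvk and Pmvk had log2 changes of -0.05 and 0.07, the isomerase gene Idi1 0.18 and the farnesyl diphosphate synthase gene Fdps -0.08. Each of the 6 intervals lay within 1.5-fold. Idi1 and Fdps share 21.9% and 21.4% of their 100-base stretches with other annotated genes, and 12.1% of the exon bases of Hmgcs1 are overlapped on the opposite strand.

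The 3 genes of squalene and lanosterol synthesis were not called either. Fdft1, the squalene synthase, had 389.8, 453, 366 and 361 CPM in A20KIKO mice 1 to 4 and 419, 369.9, 383 and 400.0 CPM in A20WT mice 1 to 4. Sqle, the squalene epoxidase and a rate-controlling enzyme, had 517, 483, 512 and 548 CPM in the A20KIKO and 381, 504, 482 and 537 CPM in the A20WT libraries. Fdft1 was level between the groups (log2 change -0.0018, SE 0.11), and for Sqle A20WT mouse 1 stood lowest (log2 change 0.11, SE 0.13). Lss, which closes the lanosterol rings, had an interval from -0.02 to 0.58 around a log2 change of 0.28 (SE 0.14), with an edgeR adjusted p of 0.371. Of the exon bases of Fdft1, 18.3% are overlapped by Ctsb on the opposite strand.

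Of the 3 genes that sense and carry sterols, 0 were called. Srebf2, which encodes SREBP2, had 236, 242, 273 and 235 CPM in A20KIKO mice 1 to 4 and 240.1, 253, 223 and 241 CPM in A20WT mice 1 to 4. Insig1, which holds SREBP in the endoplasmic reticulum when sterols are plentiful and is itself a target of it, had 27.4, 22.98, 21.4 and 34.2 CPM in the A20KIKO and 20.8, 22.9, 24.7 and 26.5 CPM in the A20WT libraries. Neither gene separated the groups, with log2 changes of 0.04 (SE 0.10) and 0.16 (SE 0.16). Stard4, a carrier of cholesterol between membranes and also a target of SREBP2, had 18.1, 16.6, 14.1 and 20.8 CPM in A20KIKO mice 1 to 4 and 28.4, 22.2, 23.1 and 23.4 CPM in A20WT mice 1 to 4. Each A20KIKO library lay below each A20WT library. Its log2 change was -0.48 (SE 0.14, edgeR adjusted p = 0.105), with an interval from -0.79 to -0.17, and DESeq2 called it (adjusted p = 0.0336).

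**Figure D3:**
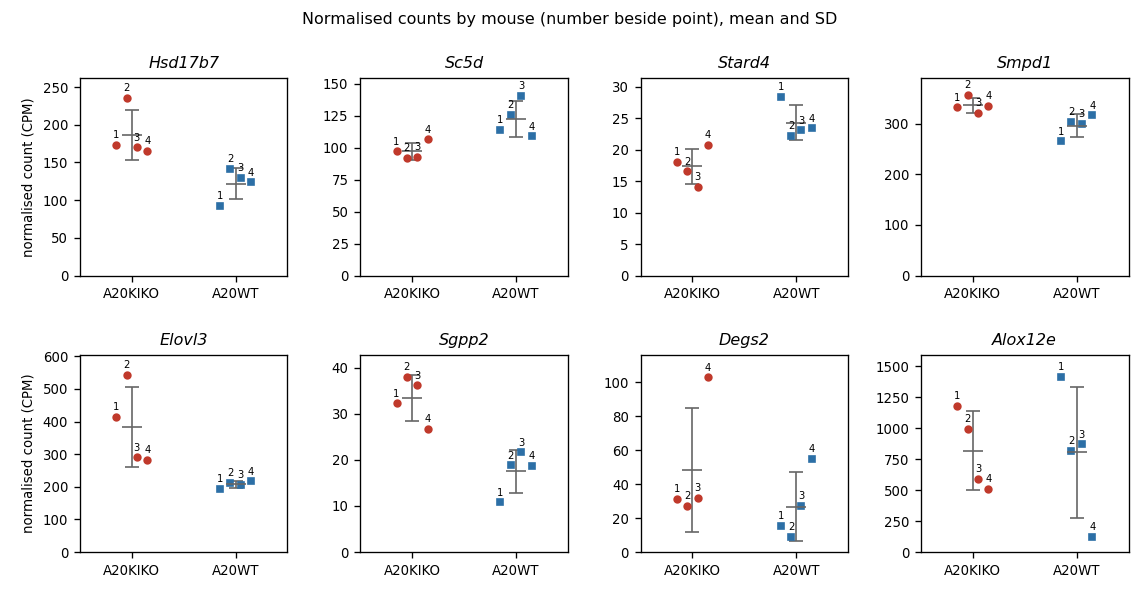
Normalised counts (CPM, from 0) of 8 genes in each mouse, with the mouse number beside each point and the mean and SD of 4 libraries as bars. Hsd17b7, Smpd1, Elovl3 and Sgpp2 are higher and Sc5d and Stard4 lower in every A20KIKO library, while Degs2 and Alox12e overlap, with A20KIKO mouse 4 at 103 CPM for the former and A20WT mouse 4 at 125 CPM for the latter.

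By step, no group of genes separated the mice completely. The level of a step in a library is the mean log2 CPM of its genes minus the mean of the A20WT libraries. For all 23 ceramide genes this was 0.18, 0.15, -0.02 and 0.23 in A20KIKO mice 1 to 4 and -0.15, 0.02, 0.13 and 0.01 in A20WT mice 1 to 4. For all 20 cholesterol genes it was 0.10, 0.12, -0.06 and 0.07, and -0.06, -0.0025, 0.0028 and 0.06. A20KIKO mouse 3 thus lay within the A20WT range on both measures. The log2 change was above 0 for 15 ceramide genes (65.2%) and 13 cholesterol genes (65.0%), against 49.0% of all tested genes. It was below 0 for 8 and 7. The median log2 change was 0.16 for the ceramide genes and 0.09 for the cholesterol genes. Leaving out A20WT mouse 1 brought these medians to 0.07 and 0.05.

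A20WT mouse 1 was the lowest of the 8 libraries for 22 of the 43 genes (51.2%), made up of 15 of the 23 ceramide and 7 of the 20 cholesterol genes. Over all tested genes it was the lowest for 25.6% and the highest for 24.7%, and it was also the deepest library. A20KIKO mouse 4 was the highest for 12 of the 43 (27.9%, against 14.5% of all tested genes), and A20KIKO mouse 2 for 10 (23.3%, against 8.98%). On the mean log2 scale, A20WT mouse 1 had the lowest level of spinous markers, at -0.28. A20KIKO mouse 4 had the highest levels of spinous and granular markers, at 0.32 and 0.47. By summed CPM, A20WT mouse 1 lay within the A20KIKO range for spinous markers (26420, against 25860 to 32010). It was highest for granular (18330) and basal markers (41460). Dsg1a and Dsc1 were lowest in it, while Krt10, Krtdap and Sbsn lay above the A20WT mean. A20KIKO mouse 4 was highest in summed spinous (32010) but not granular markers (12910). The part of these markers in the lipid genes was not tested.

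**Figure D4:**
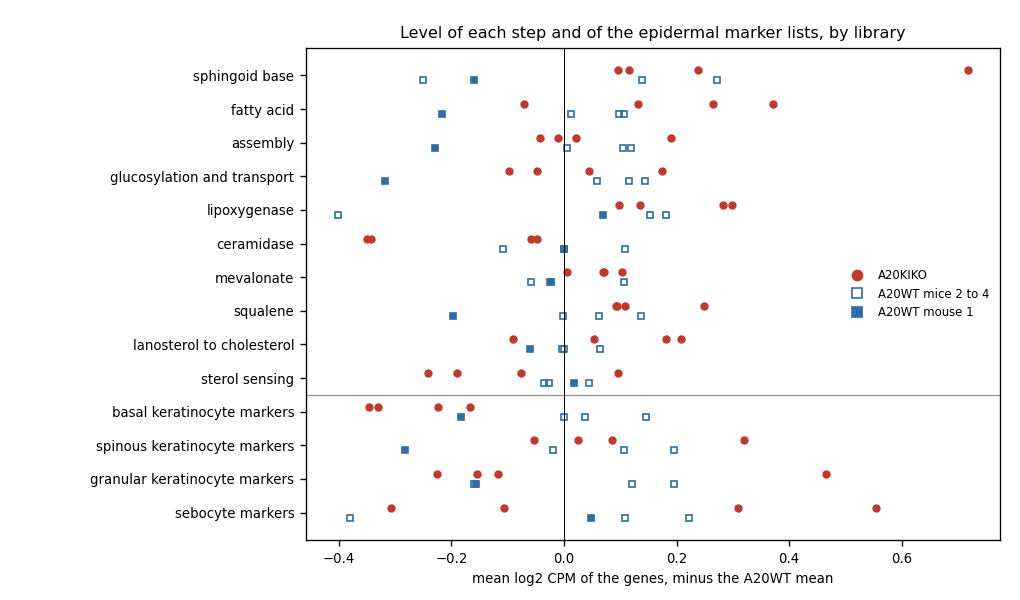
Level of each step in each library, as mean log2 CPM of its genes minus the A20WT mean (horizontal axis), above the grey line, and of 4 marker lists below it. Red circles are A20KIKO mice, open squares A20WT mice 2 to 4 and filled squares A20WT mouse 1, which is the lowest of all libraries for 4 of the 10 steps.

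Genes of neighbouring pathways, taken from lists of known function, gave 2 calls among 75 tested, both higher, where 3.49% of all tested genes were called; 2 of 75 is no more than that share. Sgpp2, a sphingosine-1-phosphate phosphatase and the 1 gene called of 25 other sphingolipid genes, had 32.3, 38.1, 36.2 and 26.8 CPM in A20KIKO mice 1 to 4 and 10.8, 18.8, 21.6 and 18.7 CPM in A20WT mice 1 to 4. Its log2 change was 0.93 (SE 0.20, edgeR adjusted p = 0.0207). Elovl3, an elongase best known from sebaceous glands and brown fat, and the 1 gene called of 16 other fatty acid and lipid envelope genes, had 415, 543, 290.5 and 283 CPM in the A20KIKO and 194, 213, 206 and 216 CPM in the A20WT libraries. Its log2 change was 0.89 (SE 0.19, edgeR adjusted p = 0.0212). No library crossed between the groups for either gene. The call of Sgpp2 was lost without A20KIKO mouse 1, 2 or 3 or A20WT mouse 4 (adjusted p 0.0533 to 0.0616), and that of Elovl3 without A20KIKO mouse 1 or any A20WT mouse (0.051 to 0.0791). Elovl3 was highest in A20KIKO mouse 2, the library highest in sebocyte markers (0.55 above the A20WT mean on the log2 scale). A20KIKO mice 1, 3 and 4 had sebocyte levels of 0.31, -0.31 and -0.11, against -0.38 to 0.22 in the A20WT libraries. Their Elovl3 also lay above each A20WT library. The part of these markers in the Elovl3 values was not tested.

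The other lists gave 0 calls each: 4 further cholesterol synthesis genes, 21 genes of sterol sensing, uptake, efflux and conversion, and 9 of fatty acid synthesis and desaturation. At an unadjusted edgeR p under 0.05 they held 0, 2 and 2 genes, against 15.4% of all tested genes. Acat2, which makes acetoacetyl-CoA, and Lbr, a sterol reductase that is also the lamin B receptor, both had log2 changes of 0.11 (SE 0.12 each). Of the sterol regulators, Srebf1, the SREBP gene of fatty acid synthesis, had -0.08 and the cholesterol acyltransferase gene Soat1 0.37 (SE 0.23, edgeR adjusted p = 0.502). The stearoyl-CoA desaturase gene Scd1 and the ATP citrate lyase gene Acly had 0.14 and 0.25.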

How the data were processed

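Ear epidermal sheets of 8 mice were sequenced with SMART-Seq v4 and Nextera libraries, per the labels, which keep neither strand nor molecular identifiers, so intervals cover the spread between mice and PCR copies alike. The authors deposited raw counts per Ensembl gene in 2 lane columns per library, which were summed here. Builds GRCm38.p5 and GRCh38, and the tools HTSeq 0.6.1p1, Picard 1.139 and STAR 2.4.2a, are named in the submitters' processing notes without roles. Counting options: not given in the sources used here. Summed counts averaged 70820780 per library.

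Genes were filtered with filterByExpr in edgeR 4.0.16 (R 4.3.3), scaled by TMM and tested with a robust two-sided quasi-likelihood fit with group as its only term. Calls were made at a Benjamini-Hochberg adjusted p under 0.05 over 16512 genes. The SE is the absolute log2 change over the square root of F, and the intervals are 95%. Levels used a prior count of 2. The fit was tested on simulated counts. DESeq2 1.42.0 and limma-voom (limma 3.58.1) were alternatives, with other size factors and filters, non-robust dispersions, single lanes, a replicate block and each library left out. Plots were drawn with Matplotlib 3.10.9 in Python 3.11.15 (NumPy 2.4.6, pandas 2.3.3).

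The members and lists were chosen with earlier results of these data known. Values per library are given for each called gene and, in each step with none, for the 2 genes with the highest CPM per kb. In each neighbouring list the called genes are named, up to 5, and otherwise the 2 with the highest mean. Degs2, Sc5d and Stard4 are marked as chosen afterwards. Ranges, intervals or single values of further genes, such as Elovl7, Slc27a4, Fa2h, Abhd5, Cyp51 and Lss, also fall outside these rules. Krt85 and Sts were not analysed here, and some neighbouring genes are not reported here.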

Additional observations from a re-analysis of the deposited data

Results flagged for a closer look

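In 6 of the 92 sets of 4 libraries examined (the 43 genes, Sgpp2, Elovl3 and Tnfaip3, in each group), 1 library stood apart by Dixon's ratio, above its 95% critical value. Chance flags about 1 in 20 such sets. Degs2 in A20KIKO mouse 4 had 102.8 CPM, against 27.0 to 31.7 CPM in the other 3 A20KIKO libraries. Hsd17b7 in A20KIKO mouse 2 had 235.6 CPM, against 166 to 173 CPM in the other 3. In A20WT mouse 1, the low values were those of Cyp51, at 249.2 CPM against 329.7 to 346 CPM, and Cyp4f39, at 139.9 CPM against 185 to 193 CPM. Degs1 in A20WT mouse 2 had 291.0 CPM, against 340.0 to 344 CPM in the other A20WT libraries. Elovl7 in A20WT mouse 3 had 252.6 CPM, against 192 to 201 CPM in the others.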

How the results depend on the processing

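The direction and the side of the threshold were kept in 738 of the 774 values that the 43 genes took under 18 alternatives, and in all 18 for 29 of the genes. The number of all genes called, 576 as reported, was 374 with a filter at 5 CPM in at least 4 libraries, 1133 with DESeq2, and 348 to 619 on leaving out each library. Of the 43 genes, 0 were called without robust dispersions, with lane 1 alone and with limma-voom, 2 with DESeq2 (Hsd17b7 and Stard4), and 0 to 1 on leaving out each library. The same counts held for the 20 cholesterol genes: 0 in those 3 settings, 2 with DESeq2 and 0 to 1 with a library left out. The medians moved by less than the spread between libraries, from 0.07 to 0.21 for the ceramide and from 0.05 to 0.12 for the cholesterol genes with a library left out. The log2 change crossed 0 for 11 genes when 1 library was left out, with these lowest and highest values: Fa2h (-0.0282 to 0.368), Cers3 (-0.0093 to 0.249), Pnpla1 (-0.0656 to 0.143), Abca12 (-0.150 to 0.0632), Aloxe3 (-0.0855 to 0.0866), Alox12e (-0.334 to 0.443), Hmgcs1 (-0.0516 to 0.136), Mvk (-0.133 to 0.0398), Pmvk (-0.0143 to 0.165), Fdft1 (-0.0780 to 0.0368) and Srebf2 (-0.0115 to 0.0705). That of Aloxe3 was 0.0016 with lane 1 alone. None of these 11 was called in any setting.

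With the replicate block, 2 of the 43 genes were called, Degs2 (log2 change 0.93, adjusted p = 0.0331), which made 1 of the 23 ceramide genes, and Hsd17b7 (adjusted p = 0.0278), where this fit called 3.34% of all tested genes. Correlations of deviations did not show that the numbers pair the mice, though they cannot exclude it. Between mice of the same number they were 0.04, 0.06, -0.01 and 0.24. A20KIKO mice 1 and 4 correlated best with the A20WT mouse of their own number. A20KIKO mouse 2 did so with A20WT mouse 1 (0.17), and A20KIKO mouse 3 with A20WT mouse 2 (0.23). The lowest count of any of the 43 genes in a library was 436, and the part of depth in the intervals was not tested.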
